A study of Mus musculus with 10 samples.

Results

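NF-kB is the family of dimeric transcription factors that carries signals from Toll-like, TNF and CD40-type receptors into the nucleus, and 10 of its genes were followed in Ptbp1-deficient and WT dendritic cells. They were taken by symbol from the 19178 genes of the count table. Of the 10, 5 are the subunit genes Nfkb1, Rela, Rel, Nfkb2 and Relb. The other 5, Nfkbia, Nfkbib, Nfkbie, Nfkbiz and Tnfaip3, are grouped as restraints of NF-kB and called inhibitors below. Nfkbiz is placed there by its name, although its product acts as a co-activator at secondary response genes. All 10 passed the filter on low counts that left 18248 genes to test, with between 3465 counts (Nfkbib) and 64248 counts (Nfkb1) in any library. The RNA came from dendritic cells, which present antigen to T cells, of mice aged 8 to 10 weeks. Of 10 libraries of poly(A) RNA, 5 are labelled Ptbp1 deficient and 5 WT, and the comparison asks what differs between the genotypes. The protein made by Ptbp1 binds pyrimidine-rich RNA and regulates splicing. The labels state no allele or Cre driver, strain, sex, tissue of origin or culture. Since nothing in them ties a library to its own animal, the p-values here describe library-to-library spread, which may be technical.

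In resting cells NF-kB dimers are held in the cytoplasm by IκB proteins. In the canonical pathway the IKK kinase complex marks IκBα for destruction and frees dimers of RelA or c-Rel with the Nfkb1 product, whereas in the non-canonical pathway NIK kinase triggers processing of the Nfkb2 precursor, which releases dimers with RelB. Several members are themselves NF-kB targets, so the system restrains itself, and RelB and c-Rel are known for their part in dendritic cell maturation and cytokine production.

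The DNA element that NF-kB binds, the kappaB site, is shown first because NF-kB acts through it on target genes, several members among them. RefSeq promoter windows (GRCm38.p6) were matched for Rela, Rel, Nfkb2, Nfkbia, Nfkbib, Nfkbie and Tnfaip3, giving 10 windows over 7 members, and the 250 bases before each start were searched on both strands. The kappaB consensus searched was GGGRNNYYCC, where R is A or G, Y is C or T and N is any base. This consensus occurred in 7 of the 10 windows, against 7.25% of all 32851 RefSeq windows of that length. By gene it occurred in 5 of the 7 members, for which no share over all genes was computed. Nfkb2 and Tnfaip3 had more than a single window each, partly overlapping for Nfkb2, so the windows are not separate counts. No match was found in the windows of Rela and Nfkbib or in the downstream window of Tnfaip3 (chr10:19011964-19012213). This says only that these letters are not there, and a match is a description of letters and not a measured binding site. The windows of Nfkbia, Rel and Nfkbie are given whole and those of Nfkb2 and Tnfaip3 as short stretches. All read 5′ to 3′ on the gene's strand, with consensus matches in capitals. Each short stretch has a single match in capitals. In the first Nfkb2 stretch an overlapping match on the other strand ends further on and is not capitalized in full. Other matches of Nfkb2 and Tnfaip3 are not printed.
Nfkbia (chr12:55492648-55492897, minus strand): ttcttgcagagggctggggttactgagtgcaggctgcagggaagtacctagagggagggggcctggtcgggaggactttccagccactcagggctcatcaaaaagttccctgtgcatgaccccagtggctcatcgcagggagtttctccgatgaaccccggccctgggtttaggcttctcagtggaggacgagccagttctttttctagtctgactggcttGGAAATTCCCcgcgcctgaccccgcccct
Rel (chr11:23770970-23771219, minus strand): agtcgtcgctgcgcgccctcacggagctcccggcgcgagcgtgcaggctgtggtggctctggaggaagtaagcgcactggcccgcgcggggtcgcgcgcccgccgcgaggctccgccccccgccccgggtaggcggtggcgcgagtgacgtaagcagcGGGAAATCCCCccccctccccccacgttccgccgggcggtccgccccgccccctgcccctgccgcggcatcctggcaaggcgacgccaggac
Nfkbie (chr17:45555450-45555699, plus strand): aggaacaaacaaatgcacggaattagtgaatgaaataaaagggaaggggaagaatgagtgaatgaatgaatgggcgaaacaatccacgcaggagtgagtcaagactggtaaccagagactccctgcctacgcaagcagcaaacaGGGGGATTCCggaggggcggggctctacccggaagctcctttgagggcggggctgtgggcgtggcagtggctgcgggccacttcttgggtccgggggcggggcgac
Nfkb2, first start (chr19:46304688-46304717, plus strand): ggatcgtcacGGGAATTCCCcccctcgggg
Nfkb2, last start (chr19:46305695-46305724, plus strand): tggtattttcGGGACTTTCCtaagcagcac
Tnfaip3 (chr10:19015411-19015432, minus strand): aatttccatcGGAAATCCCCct

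Libraries of Ptbp1-deficient cells held 61759378 to 92697815 gene counts and those of WT cells 50516163 to 66153758. Ptbp1 itself stood at 75.0, 73.4, 74.6, 73.2 and 75.7 CPM in deficient replicates 1 to 5, against 259, 296, 312, 309.6 and 294 CPM in WT replicates 1 to 5, so every library matched its label; the transcript was reduced, to 25.3% of WT, and not absent. The dendritic cell genes Itgax, Flt3, Zbtb46, Ciita and the class II genes were all measured, and the sum over 10 such genes was 41534 to 45359 CPM in deficient libraries and 35010 to 42922 CPM in WT libraries. Markers of other cells were uneven: 17 macrophage markers summed to 737 to 1487 CPM in deficient libraries and 2068 to 5445 CPM in WT libraries, where replicates 1 and 5 held the most (3663 and 5445 CPM). Deficient replicates 1 and 2 held less of them (755 and 737 CPM) than deficient replicates 3, 4 and 5 (1340 to 1487 CPM). NK cell markers summed to 216 to 306 CPM in deficient and 62.0 to 111 CPM in WT libraries, whereas 10 T cell markers other than Cd4 summed to 44.7 to 52.4 and 30.9 to 97.4 CPM. Cd4, which dendritic cells also express, was at 230.0 to 269.5 CPM in deficient and 284.97 to 396 CPM in WT libraries. Member results that change without these libraries are given both ways, and every pathway gene named below kept its direction and its call without WT replicates 1 and 5. Throughout, CPM are counts scaled to library size after TMM normalization. Adjusted p-values come from the quasi-likelihood test of edgeR and were adjusted by the Benjamini-Hochberg method across the 18248 genes.

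All 5 subunit genes differed between the genotypes, 4 lower and 1 higher in the Ptbp1-deficient libraries, whereas among the 5 inhibitor genes 1 was called. The inhibitor count depends on the setting: it was 3 of 5 in FPKM and without deficient replicates 1 and 2, and 0 of 5 in several fits that left out 1 library. A missing call need not mean a smaller change. The log2 fold change of Nfkbia (-0.32, SE 0.14) was larger than that of Rela (-0.21, SE 0.041). That of Tnfaip3 (-0.21, SE 0.19) was about the same but reversed without WT replicate 5. Nfkbib, Nfkbie and Nfkbiz were at -0.06 to -0.14. Nfkb1 rose, and Rela, Rel, Nfkb2, Relb and the inhibitor gene Nfkbie fell, each by less than 2-fold. The test called 44.3% of all genes at an adjusted p under 0.05, 21.7% higher and 22.6% lower, so a call is common in these data. For the 5 subunits no deficient library overlapped the range of the WT libraries, and for all 5 inhibitors the CPM ranges overlapped; of all genes tested, 33.4% did not overlap. The median log2 fold change was -0.36 over the subunits, -0.14 over the inhibitors and -0.03 over all genes. In bulk RNA a lower level can mean fewer cells of a type or less RNA per cell, and these cannot be told apart.

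**Figure D1:**
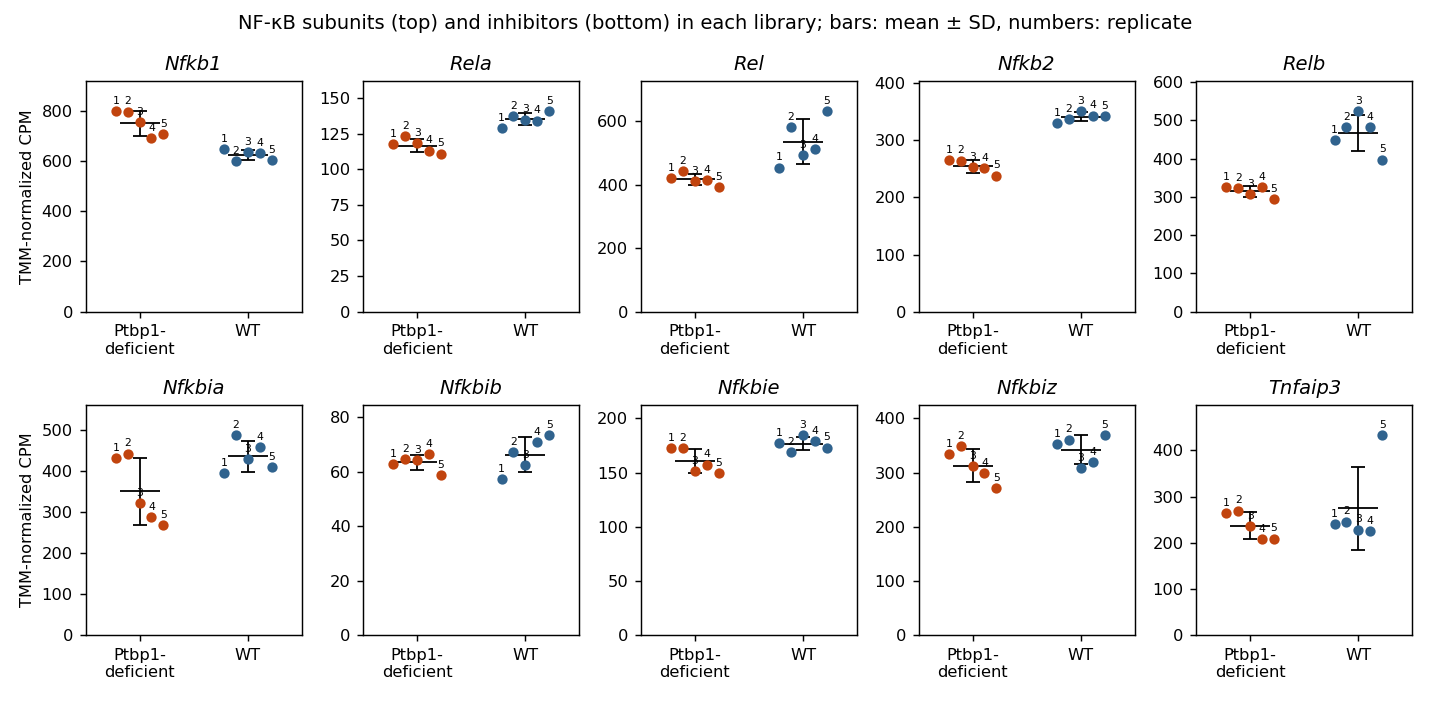
TMM-normalized CPM (y axes, from 0) of the 10 genes in each Ptbp1-deficient (left, orange) and WT (right, blue) library, with mean ± SD over 5 libraries and replicate numbers. The groups are apart for all 5 subunits in the top row and overlap for all 5 inhibitors in the bottom row; WT replicate 5 stands alone for Tnfaip3 at 434 CPM.

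Nfkb1 (ENSMUSG00000028163, chromosome 3, 135584655 to 135691547, minus strand, GRCm38) encodes the precursor whose processed form pairs with RelA and c-Rel, and which unprocessed acts as an inhibitor. It had 798, 796, 754, 689.7 and 707 CPM in Ptbp1-deficient replicates 1 to 5, against 646, 601, 635, 629.8 and 603 CPM in WT replicates 1 to 5. Every deficient library was above every WT library, and deficient replicates 1 and 2 were the highest. The means were 749 ± 49.9 and 623 ± 19.997 CPM (SD, n = 5 each), a 1.20-fold rise (log2 fold change 0.27, SE 0.053, edgeR adjusted p = 0.0013).

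Rela (ENSMUSG00000024927, chromosome 19, 5637483 to 5648130, plus strand) encodes RelA, the main activating subunit of the canonical pathway. It had 117, 123, 118, 113 and 111 CPM in deficient replicates 1 to 5 and 129, 137, 135, 134 and 141 CPM in WT replicates 1 to 5. The groups were apart by a narrow margin, 123 CPM at the highest deficient library and 129 CPM at the lowest WT library. The deficient mean was 86.3% of WT, 117 ± 4.81 against 135 ± 4.32 CPM (log2 fold change -0.21, SE 0.041, edgeR adjusted p = 0.0011).

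Rel (ENSMUSG00000020275, chromosome 11, 23736847 to 23770970, minus strand) encodes c-Rel, a subunit of lymphoid and myeloid cells that drives interleukin-12 family genes. Its levels were 419.99, 443, 412, 414 and 391 CPM in deficient replicates 1 to 5, against 453, 581, 493, 513 and 631 CPM in WT replicates 1 to 5. The WT libraries were far more spread than the deficient ones, with WT replicates 2 and 5 highest and WT replicate 1 close to the deficient range. The means were 416 ± 18.4 and 534 ± 71.0 CPM (log2 fold change -0.36, SE 0.079, edgeR adjusted p = 0.0025). Without WT replicates 1 and 5 the log2 fold change was -0.35 (adjusted p = 3.3e-04).

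The pair of the non-canonical pathway fell furthest among the subunits. Nfkb2 (ENSMUSG00000025225, chromosome 19, 46304320 to 46312385, plus strand), the precursor gene of that pathway, had 265, 264, 253, 251 and 238 CPM in deficient replicates 1 to 5, against 329.6, 337, 351, 343 and 342 CPM in WT replicates 1 to 5. Both groups were tight, and the gap between them was wider than the range within either. The deficient mean was 74.6% of WT, 254 ± 11.002 against 341 ± 7.81 CPM (log2 fold change -0.42, SE 0.042, edgeR adjusted p = 6.1e-06). On the opposite strand, Psd shares 6.52% of the exon bases of Nfkb2 and AC114539.1, which has no row in the count table used here, 11.6%, and the sources used here do not give whether counting used strand.

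Relb (ENSMUSG00000002983, chromosome 7, 19606217 to 19629438, minus strand) encodes the partner of the processed Nfkb2 product. It stood at 326, 324, 307, 326 and 294 CPM in deficient replicates 1 to 5 and at 448, 482, 524, 482 and 397 CPM in WT replicates 1 to 5. WT replicate 5 was the lowest WT library and still above all deficient libraries. Relb had the largest fall of the 10 genes, to 67.6% of WT, 315 ± 14.2 against 467 ± 47.2 CPM (log2 fold change -0.57, SE 0.067, edgeR adjusted p = 2.4e-05), and the log2 fold change was -0.65 without WT replicates 1 and 5 (adjusted p = 3.9e-07).

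**Figure D2:**
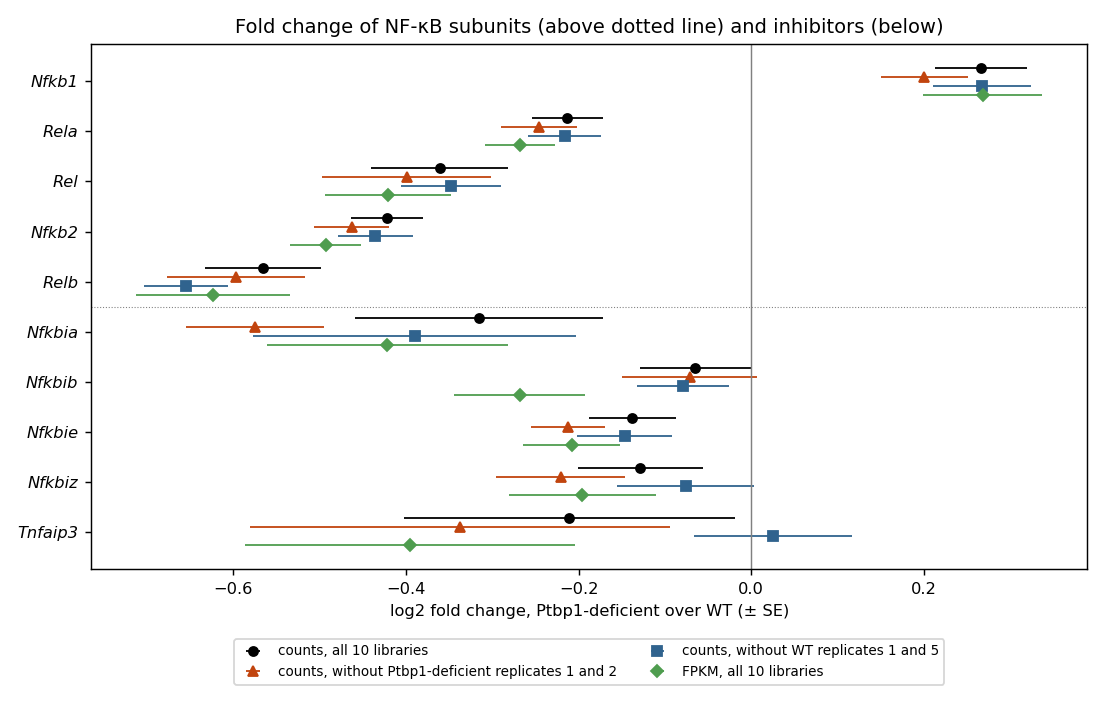
Log2 fold change, Ptbp1-deficient over WT, with its SE (x axis) for each gene under 4 settings: all counts, counts without deficient replicates 1 and 2, counts without WT replicates 1 and 5, and deposited FPKM on the log2(FPKM + 1) scale. Nfkb1 lies at 0.20 to 0.27 and the other 4 subunits below 0 in all 4 settings, while Nfkbia moves from -0.32 with all libraries to -0.58 without deficient replicates 1 and 2.

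Ratios within a library do not depend on how libraries are scaled, and 5 were compared. The Nfkb2 count was 0.332, 0.332, 0.336, 0.364 and 0.337 of the Nfkb1 count in deficient replicates 1 to 5, against 0.510, 0.561, 0.553, 0.544 and 0.568 in WT replicates 1 to 5. This ratio separated the groups most, with a difference in mean log2 ratio of -0.69. Its exact permutation p (two-sided, 5 libraries a group) was 0.00794, the smallest this design can give, and 0.0397 adjusted over the 5 ratios. Nfkb1 was higher and Nfkb2 lower in every deficient library, so this ratio had to separate the groups in any subset of libraries. Its p is therefore no evidence beyond the results of these genes. The Relb to Rela ratio was 2.71 ± 0.119 in deficient libraries and 3.46 ± 0.391 in WT libraries (log2 difference -0.35, exact permutation p = 0.0159, adjusted p = 0.0397). Its groups overlapped, because deficient replicate 4 had 2.88 and WT replicate 5 had 2.83. With 1 library left out the Nfkb2 to Nfkb1 difference was -0.71 to -0.67 and its p always the smallest that 4 against 5 libraries allow, 0.0159, which adjusts to 0.0397 to 0.0794 (exact permutation test). Without deficient replicates 1 and 2 it was -0.66, again at the smallest p, 0.0357 (exact permutation adjusted p = 0.0893), so a missed threshold there reflects the number of libraries. Relb over Rela was -0.42 to -0.30 with 1 library left out (exact permutation adjusted p 0.0397 to 0.0794) and -0.35 without deficient replicates 1 and 2 (adjusted p = 0.119). Of 13 alternatives this ratio kept its call in 4 and lost it in 9, with its direction unchanged.

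The other 3 ratios did not pass. Rel over Rela was 3.57 ± 0.0671 in deficient libraries and 3.95 ± 0.404 in WT libraries (log2 difference -0.14, exact permutation adjusted p = 0.106). Nfkbia over Rela was 2.99 ± 0.592 and 3.23 ± 0.265 (log2 difference -0.13, exact permutation adjusted p = 0.476). In the deficient group this ratio was 3.67 and 3.59 in replicates 1 and 2, above all WT libraries, and 2.43 to 2.72 in replicates 3, 4 and 5, below all WT libraries. Tnfaip3 over Nfkbia was 0.691 ± 0.0761 and 0.639 ± 0.239 (log2 difference 0.17, exact permutation adjusted p = 0.476), and WT replicate 5 alone reached 1.06.

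**Figure D3:**
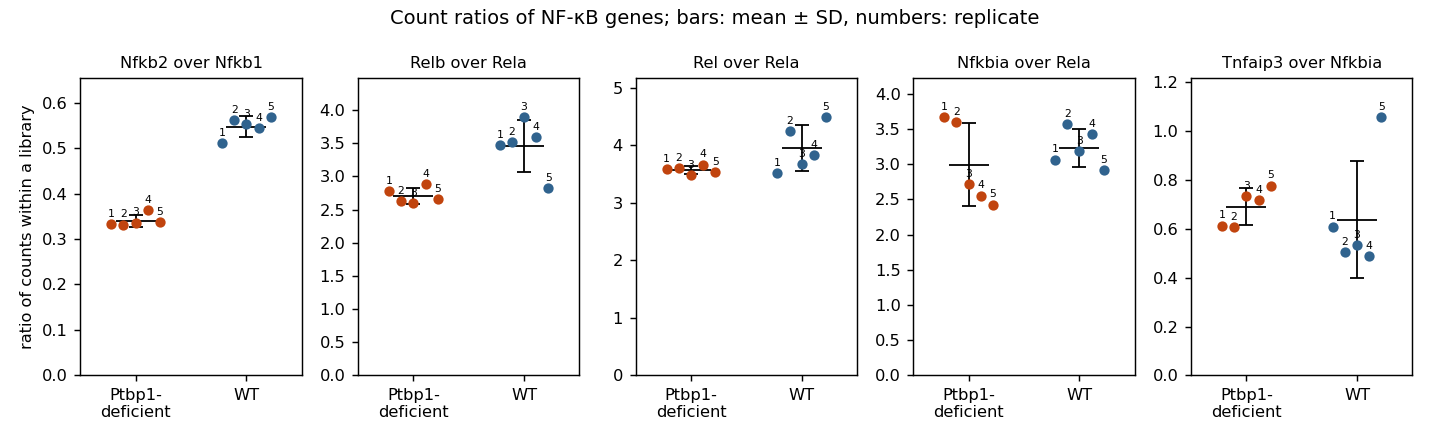
Ratio of the counts of 2 NF-kB genes within each library (y axes, from 0) for Ptbp1-deficient (left, orange) and WT (right, blue) libraries, with mean ± SD over 5 libraries and replicate numbers. The Nfkb2 to Nfkb1 ratio is at most 0.364 in every deficient library and at least 0.510 in every WT library, and the other 4 ratios overlap.

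Per length, in the FPKM that the authors deposited, Nfkb1 and Relb were the most abundant subunit transcripts in both genotypes. Nfkb1 had 254 ± 26.8 FPKM in deficient and 209 ± 8.00 FPKM in WT libraries, Relb 123 ± 14.7 and 189 ± 15.4 FPKM, Nfkb2 71.7 ± 3.44 and 101 ± 1.55 FPKM, Rel 49.9 ± 2.47 and 67.5 ± 7.81 FPKM, and Rela 38.2 ± 1.73 and 46.2 ± 0.934 FPKM. In the deficient libraries the ranges of neighbours in this order did not overlap, and in WT libraries those of Nfkb1 and Relb did. Nfkb1 made up 47.2 ± 1.17% of the FPKM summed over the 5 subunits in deficient libraries and 34.2 ± 0.675% in WT libraries, Relb 22.9 ± 1.37% and 30.8 ± 1.77%, and Nfkb2 13.4 ± 0.613% and 16.5 ± 0.692%. The sum itself was 536 ± 46.5 FPKM in deficient and 613 ± 19.2 FPKM in WT libraries. The place of Nfkb1 depends on the length used: divided by all annotated exon bases of the gene, 12061, its level was 62.1 ± 4.13 CPM per kilobase in deficient and 51.6 ± 1.66 in WT libraries, below Relb at 81.2 ± 3.67 and 120 ± 12.1 CPM per kilobase. On that scale it was also below Nfkb2 (74.3 ± 1.70) and Rel (71.6 ± 9.51) in WT libraries, though not in deficient libraries.

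**Figure D4:**
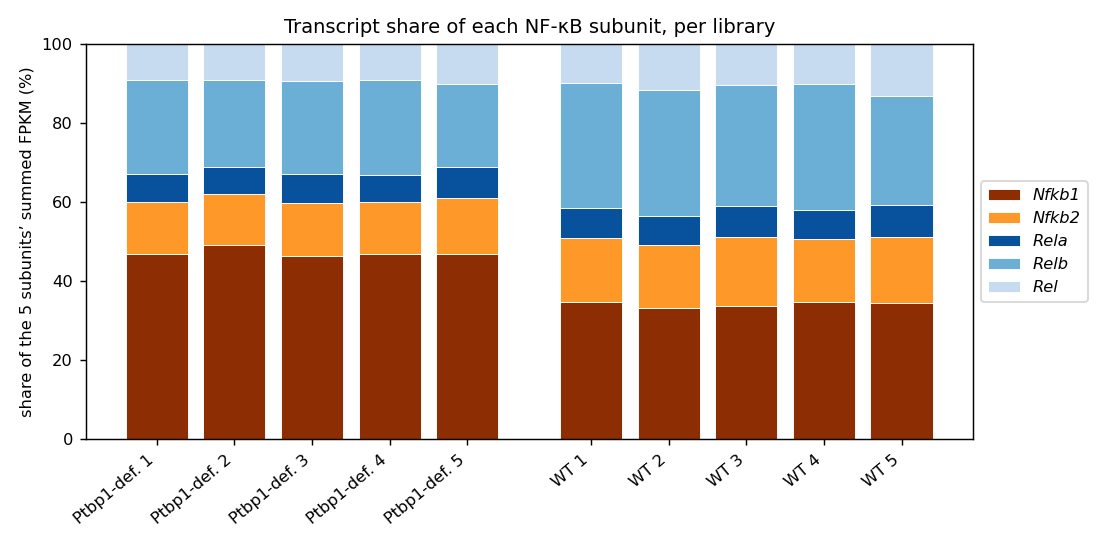
Share of each subunit gene in the FPKM summed over the 5 subunits (y axis, percent) in each Ptbp1-deficient (left) and WT (right) library. Nfkb1 takes 46.3% to 49.3% in deficient libraries and 33.3% to 34.7% in WT libraries.

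Among the inhibitors, Nfkbia (ENSMUSG00000021025, chromosome 12, 55489410 to 55492647, minus strand), which encodes IκBα, the inhibitor destroyed and quickly remade in canonical signalling, divided the deficient libraries. It had 431, 443, 322, 289 and 269 CPM in deficient replicates 1 to 5, against 395, 488, 429, 459 and 409.8 CPM in WT replicates 1 to 5. Deficient replicates 1 and 2 lay within the WT range and replicates 3, 4 and 5 below it. Over all libraries the difference did not pass (351 ± 81.0 and 436 ± 37.7 CPM, log2 fold change -0.32, SE 0.14, edgeR adjusted p = 0.10). Without deficient replicates 1 and 2 it did (log2 fold change -0.58, adjusted p = 2.5e-04), and it also passed with DESeq2 (-0.31, adjusted p = 0.035), with limma-voom (-0.44, adjusted p = 0.0096) and in the FPKM values (-0.42, limma adjusted p = 0.028). Leaving out deficient replicate 1 or 2 alone was enough for it to pass (-0.40 and -0.42, edgeR adjusted p = 0.039 and 0.027). These fits called 39.5% of all genes without deficient replicates 1 and 2, 47.0% with DESeq2, 50.1% with limma-voom and 47.5% in FPKM.

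The other restraints moved less. Nfkbie, which encodes IκBε, had 172, 173, 151, 157 and 149.7 CPM in deficient replicates 1 to 5 and 177, 169, 185, 179 and 173 CPM in WT replicates 1 to 5, with deficient replicates 1 and 2 inside the WT range. It fell to 90.9% of WT (log2 fold change -0.14, SE 0.051, edgeR adjusted p = 0.041), a call that did not hold when any of deficient replicates 3, 4 or 5 or WT replicates 1, 3 or 4 was left out (adjusted p 0.065 to 0.11). In FPKM its groups did not overlap, 52.3 to 60.8 in deficient and 62.1 to 69.2 in WT libraries (log2 fold change -0.21, limma adjusted p = 0.010). Nfkbib, the IκBβ gene, was at 63.4 ± 2.87 CPM in deficient and 66.3 ± 6.52 CPM in WT libraries (log2 fold change -0.06, edgeR adjusted p = 0.45). In the FPKM values it was lower, 38.1 ± 4.39 against 46.0 ± 2.93 FPKM (log2 fold change -0.27 with limma, adjusted p = 0.013). Ccer2 and Sirt2 on the opposite strand share 14.5% and 1.94% of its exon bases.

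Nfkbiz encodes IκBζ, an inducible nuclear member that acts as a co-activator at secondary response genes. It had 334, 349, 312, 299.6 and 272 CPM in deficient replicates 1 to 5 and 353, 361, 308, 320.03 and 369.7 CPM in WT replicates 1 to 5. The ranges overlapped and the difference did not pass (log2 fold change -0.13, SE 0.072, edgeR adjusted p = 0.17), except without deficient replicates 1 and 2 (-0.22, adjusted p = 0.037). Tnfaip3 encodes a ubiquitin-editing enzyme that shuts off signalling upstream of IKK. It had 264, 269, 237, 208 and 209 CPM in deficient replicates 1 to 5, against 241, 246, 229, 225 and 434 CPM in WT replicates 1 to 5. With WT replicate 5 the log2 fold change was -0.21 (SE 0.19, edgeR adjusted p = 0.41), and without it 0.016 (adjusted p = 0.89). WT replicate 5 also held the most macrophage (5445 CPM), B cell (2273 CPM) and neutrophil (681 CPM) marker counts, and the part of these cells in its Tnfaip3 level was not tested.

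The deficient libraries were not alike in these genes. In 7 of the 10, namely Nfkb1, Rel, Nfkb2, Nfkbia, Nfkbie, Nfkbiz and Tnfaip3, deficient replicates 1 and 2 were both above replicates 3, 4 and 5, as were 21.3% of all genes tested. Among the inhibitors the step was largest in Nfkbia, 431 to 443 CPM in replicates 1 and 2 and 269 to 322 CPM in replicates 3, 4 and 5. Deficient replicates 1 and 2 were also the shallowest of the group (61759378 and 64935948 gene counts), and the part of depth or of the macrophage counts given above was not tested.

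Subset markers differed between the same groups of libraries. Summed over 10 genes, cDC1 markers were at 5808 to 6780 CPM in deficient and 3130 to 4296 CPM in WT libraries. Over 10 genes cDC2 markers were at 891 to 1079 and 1400 to 1523 CPM. Over 11 genes markers of mature migratory dendritic cells were at 1442 to 1691 and 2098 to 2324 CPM. Of these 11 genes 6 fell and none rose (54.5% called, against 44.3% of all genes tested). Without WT replicates 1 and 5, 8 fell and none rose, and 43.8% of all genes were called (21.7% higher and 22.1% lower). None of the cDC1, cDC2 and mature cell sums overlapped between groups. Their two-sided exact permutation p was 0.00794 each, the smallest this design can give, which follows from the lack of overlap. The lists were chosen with earlier results of these data known, so these p-values are descriptive. The part of these sums in the levels of Relb, Nfkb2 and the other subunits was not tested.

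The gene with a profile nearest to the mean of the 10 members was Pip5k1a, with a root mean square distance of 0.036 in log2 CPM over the 10 libraries, among 9679 candidates. Next came Crebbp at 0.037, Chd1, Rexo1 and Lrrc8d at 0.043 and Bptf at 0.044. Of the members, Rela lay nearest to that mean at 0.039 and Nfkb1 farthest at 0.25, so the mean stands for some of them poorly.

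Upstream of the subunits, the IKK catalytic genes moved in opposite directions. Chuk, which encodes IKKα, the kinase shared by both pathways, rose 1.48-fold, to 270.2 ± 18.2 CPM in deficient against 182 ± 6.71 CPM in WT libraries (edgeR adjusted p = 2.5e-06). Ikbkb, which encodes IKKβ, the main kinase of IκBα, fell to 79.3% of WT, 219 ± 6.19 against 276 ± 8.02 CPM (edgeR adjusted p = 2.1e-05). Of 17 genes for IKK and kinases feeding it, 1 rose and 6 fell (41.2% called, against 44.3% of all genes tested). Among those that fell were the receptor-proximal kinase genes Ripk1 (65.2 ± 2.78 against 76.7 ± 1.27 CPM, edgeR adjusted p = 3.7e-04) and Irak4 (86.4 ± 2.99 against 98.9 ± 4.40 CPM, edgeR adjusted p = 0.0025). The list's median log2 fold change was -0.02. Without WT replicates 1 and 5 the counts were 1 and 5, with 43.8% of all genes called.

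Adaptor and ubiquitin ligase genes held 3 rises and 7 falls among 18 (55.6% called, against 44.3% of all genes tested). Without WT replicates 1 and 5 the counts were 3 and 8, with 43.8% of all genes called. The median log2 fold change over the list was -0.03. Myd88, the adaptor of most Toll-like receptors, rose 1.498-fold to 146 ± 5.35 against 97.4 ± 6.43 CPM (edgeR adjusted p = 1.9e-06). Sharpin, a component of the linear ubiquitin ligase, rose 1.26-fold to 94.7 ± 3.44 against 74.95 ± 2.34 CPM (edgeR adjusted p = 2.5e-05). Traf3, which holds NIK in check, fell to 70.4% of WT (118 ± 10.1 against 168 ± 8.34 CPM, edgeR adjusted p = 2.3e-05).

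Of 18 receptor genes 3 rose and 5 fell (44.4% called, against 44.3% of all genes tested). Tnfrsf1b, the second TNF receptor, fell to 59.2% of WT in tight groups, 144 ± 3.91 against 243 ± 4.23 CPM (edgeR adjusted p = 3.7e-08), and Tnfrsf13b to 70.1% (edgeR adjusted p = 9.0e-05). Tlr3, a sensor of double-stranded RNA that is also a cDC1 marker, rose 2.76-fold (193 ± 15.0 against 69.9 ± 18.7 CPM, edgeR adjusted p = 1.2e-04). Il1r1 fell as well, at a low level (0.367 ± 0.151 against 2.09 ± 0.688 CPM, edgeR adjusted p = 3.0e-05). Without WT replicates 1 and 5, where 43.8% of all genes were called (21.7% higher and 22.1% lower), 6 receptor genes rose and 5 fell.

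Of 19 further inhibitors and brakes 6 rose and 3 fell (47.4% called, against 44.3% of all genes tested). Without WT replicates 1 and 5 the counts were 6 and 4, with 43.8% of all genes called. Pdlim2, a ligase that targets nuclear RelA, rose 1.55-fold (83.5 ± 2.77 against 53.8 ± 1.01 CPM, edgeR adjusted p = 1.2e-07) and Trafd1, an inhibitor of TLR signalling, 1.63-fold (476 ± 40.3 against 292 ± 6.63 CPM, edgeR adjusted p = 9.4e-07). Commd1, whose product promotes RelA degradation, rose 1.35-fold (edgeR adjusted p = 3.3e-04) and N4bp1 1.151-fold (edgeR adjusted p = 0.0018).

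Genes known as NF-kB targets moved in both directions, 9 higher and 12 lower of 44 tested, with a median log2 fold change of -0.14. That is 47.7% called, against 44.3% of all genes tested. Irf1, also interferon-inducible, rose 1.97-fold (384 ± 29.7 against 195 ± 9.11 CPM, edgeR adjusted p = 1.1e-07), and Cd86, a co-stimulatory ligand, 1.48-fold (218 ± 23.6 against 147 ± 11.6 CPM, edgeR adjusted p = 6.8e-05). Fscn1, the actin bundler of mature dendritic cells, fell to 59.3% of WT (199 ± 24.4 against 336 ± 24.3 CPM, edgeR adjusted p = 8.7e-06) and Marcksl1 to 73.5% (edgeR adjusted p = 1.9e-05); both are also in the list for mature cells. Without WT replicates 1 and 5, which held the most macrophage transcripts, 14 targets rose and 15 fell, and 43.8% of all genes were called.

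**Figure D5:**
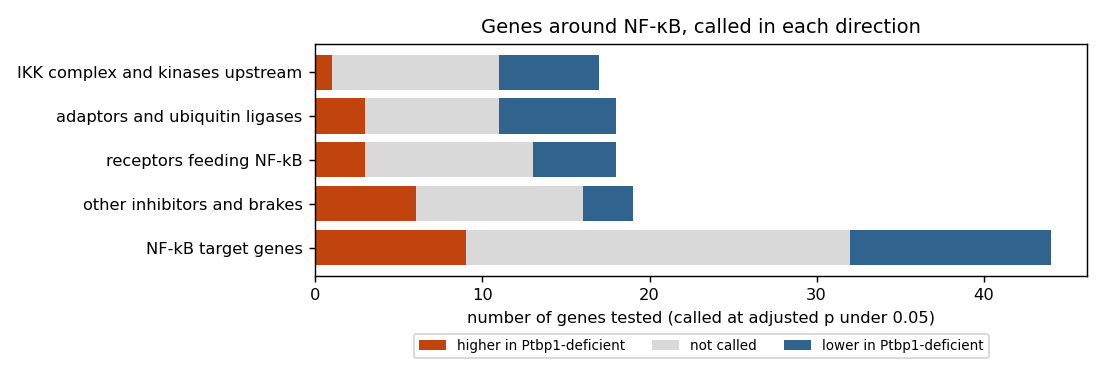
Number of genes tested (x axis) in 5 lists around NF-kB that were higher in Ptbp1-deficient libraries (orange), not called (grey) or lower (blue) at an edgeR adjusted p under 0.05. With all libraries the list of further inhibitors and brakes has 6 rises and 3 falls, and the other 4 lists have more falls than rises. Without WT replicates 1 and 5 the receptor list has 6 rises and 5 falls. Some genes are in more than a single list. Of each list 41.2% to 55.6% was called with all libraries, against 44.3% of all genes tested (21.7% higher and 22.6% lower).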

How the data were processed

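Poly(A) RNA was sequenced as paired 150 bp reads on an Illumina HiSeq, per the labels' protocols. HISAT2, StringTie and DESeq2 are named in the submitters' processing notes, without versions, beside the human build GRCh38, whereas the gene identifiers in the files are those of mouse. Which tool counted reads, and whether it used strand, is not stated in the sources used here. Counts were deposited raw, 1 value per gene and library, none under 2; rows for reads outside genes or not unique stayed out of totals and tests. Reads in genes were 69.4% to 74.1% of each library. The FPKM values were deposited by the authors for 11978 rows, none with a value under 1, and the 10 identifiers listed more than once were added up.

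Symbols and coordinates came from GENCODE M21 (GRCm38), which matched 19049 identifiers. Genes were filtered with filterByExpr (930 removed), scaled by TMM and tested with edgeR 4.0.16 (limma 3.58.1, R 4.3.3, robust quasi-likelihood, genotype as the only term); the SE is the log2 fold change divided by the square root of F. FPKM were tested without TMM factors, with limma on log2(FPKM + 1), a scale that understates changes of low genes. Ratios and sums were compared by exact two-sided permutation over 252 assignments (scipy 1.17.1). Replicate pairs differed by more than counting noise (chi-square per degree of freedom at least 5.13).

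The members and the gene lists were chosen with earlier results of these data known. From each list of pathway genes the text names up to 4 called genes with the smallest adjusted p, and the 6 genes nearest to the mean member profile (at least 5 CPM, no clone names). A gene that this rule also names is not reported here. Alternatives were RLE and upper-quartile scaling, DESeq2 1.42.0, limma-voom, a floor of 1 CPM in 5 libraries or no filter at all, an adjusted p under 0.01, the replicate number as a block, FPKM with pseudocounts of 1 and 0.1 and a floor of 2, and each library left out; fits without WT replicates 1 and 5 and without deficient replicates 1 and 2 were added after seeing the data.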

Additional observations from a re-analysis of the deposited data

Results flagged for a closer look

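Of 48 groups of 5 libraries screened for a single outlying library, 7 had one, where chance flags about 1 in 20 groups. WT replicate 5 accounted for 5 of them. Its Tnfaip3 level was 434 CPM, against 225 to 246 CPM in the other WT libraries, and its Tnfaip3 to Nfkbia count ratio was 1.06, against 0.490 to 0.609. The same library had summed B cell markers of 2273 CPM (645 to 994 CPM in the others), NK cell markers of 111 CPM (62.0 to 67.3 CPM) and neutrophil markers of 681 CPM (78.3 to 140 CPM). Ptbp1-deficient replicate 4 had the highest Nfkb2 to Nfkb1 ratio of its group, 0.364 against 0.332 to 0.337, still below all WT libraries, and the highest sum of mature migratory dendritic cell markers, 1691 CPM against 1442 to 1493 CPM.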

How the results depend on the processing

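Nfkb1 stayed higher and Rela, Rel, Nfkb2 and Relb lower, each called, in all alternatives run, with log2 fold changes of 0.20 to 0.29, -0.27 to -0.20, -0.43 to -0.29, -0.50 to -0.40 and -0.65 to -0.53. The number of members called was 5 to 8, and 5 to 7 when 1 library was left out. Nfkbie lost its call without the filter (adjusted p = 0.052) and at an adjusted p under 0.01. Tnfaip3 ranged from -0.28 to 0.016 with 1 library left out, reversing without WT replicate 5, and reversed to 0.025 without WT replicates 1 and 5. In FPKM, where gene set, unit, scaling and test all differ, 2429 genes rose and 3252 fell, against 3955 and 4131 in counts. With a pseudocount of 0.1, 2432 rose, and with the floor 2399. TMM factors were 0.964 to 0.985 in deficient and 1.003 to 1.085 in WT libraries, and the FPKM fits did not apply them. The median log2 fold change of the members was -0.21 in counts and -0.33 in FPKM, and the part of scaling in this was not tested.

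Nfkb2 over Nfkb1 kept its direction at -0.71 to -0.67 and Relb over Rela at -0.42 to -0.30 when 1 library was left out. The smallest exact permutation p that 4 against 5 libraries allow is 0.0159. Without deficient replicates 1 and 2 these log2 differences were -0.66 and -0.35, not called. Rel over Rela was called in FPKM (-0.15), without WT replicates 1 and 5 (-0.13) and without WT replicate 1 alone (-0.18, exact permutation adjusted p = 0.0397), with a range of -0.18 to -0.091 over single libraries left out. Tnfaip3 over Nfkbia was called without WT replicates 1 and 5 (0.44) and ranged from 0.092 to 0.37, and Nfkbia over Rela from -0.21 to -0.058. Apart from the smallest p for Nfkb2 over Nfkb1, the cause of these changes was not tested.

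Same-numbered libraries did not deviate together (r of -0.096 to 0.11 across genes, which are not independent replicates). The labels do not say whether the numbers pair libraries. These correlations cannot exclude it, because large differences within a group can hide a shared origin. With the replicate number as a block 7470 genes and 5 members were called, with Nfkbie not among them (adjusted p = 0.066).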
